A study of Mus musculus with 6 samples.

Results

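Vomeronasal, taste and trace amine receptors are G protein-coupled receptors of the nose and tongue, and in most other tissues their genes are silent. A gene was taken as a member when its symbol began with Vmn1r, Vmn2r, Tas1r, Tas2r or Taar followed by a number and when it had a probe set that the platform annotation pairs with that gene alone. Of 19938 genes on the array, 213 were members, namely 117 Vmn1r, 46 Vmn2r, 3 Tas1r, 34 Tas2r and 13 Taar genes. They were measured in neural cultures made from W4, a mouse embryonic stem cell line, on 6 Affymetrix whole transcript arrays. The 3 VPA arrays are of cultures that had sodium valproate at 300 uM throughout 16 days of differentiation, and the 3 PBS arrays are of cultures given phosphate-buffered saline, the solvent, in its place. Valproate is an antiepileptic drug, a developmental neurotoxicant and an inhibitor of histone deacetylases. Cultures of both groups were grown on coated plates in medium with B27, N2, basic FGF and laminin, and the design text calls the 3 arrays of a group biological replicates. The comparison asked here is whether receptor genes that are silent in most tissues changed with the drug.

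The vomeronasal organ lies in the nasal septum and detects pheromones and other social signals. Its sensory neurons near the surface of the epithelium carry Vmn1r receptors, coupled to the G protein subunit encoded by Gnai2, and the deeper ones carry Vmn2r receptors, coupled to that of Gnao1. In taste buds, Tas1r proteins pair to form the sweet and the umami receptor, and Tas2r proteins detect bitter compounds. Taar receptors bind volatile amines in olfactory neurons, except Taar1, which is found in the brain and tunes monoamine neurons. Most of these genes lie in clusters of close relatives, and each vomeronasal or olfactory neuron uses few of them while the rest of the cluster stays shut.

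The cultures had high signal for neuronal genes. Tubb3, a neuronal tubulin gene, was at 11.60 ± 0.02 with PBS and 11.33 ± 0.05 with VPA, and Map2, a microtubule protein gene of dendrites, at 12.07 ± 0.03 and 11.87 ± 0.01 (log2 signal, SD, n = 3). The progenitor gene Nes was at 8.10 ± 0.12 and 8.48 ± 0.15, while Pou5f1 and Nanog, which mark pluripotent cells, lay at or under 6.03 in both groups. Of 6 neuron markers 5 were called lower with VPA and 0 higher, and of 4 progenitor markers 2 higher and 0 lower. Over all genes 15.7% were called lower and 13.6% higher. The background gauge was 6.155, the 95th percentile of the means of 1027 olfactory receptor genes, which are also mostly silent outside the nose. A level under it was not told apart from background. Array medians lay between 6.99 and 7.03. Over all genes the median absolute difference was 0.06 to 0.07 between PBS arrays and 0.07 between VPA replicates 2 and 3, but 0.12 and 0.13 between VPA replicate 1 and these. Markers of other cells also moved with VPA: 6 of 6 fibroblast markers were called higher, with mean levels over the list from 8.08 to 8.40 on PBS arrays and from 10.07 to 10.17 on VPA arrays, as were 4 of 4 endothelial markers, at 6.08 to 6.27 and 7.22 to 7.47. The part of these cells in the receptor values was not tested. In these bulk samples a different number of cells of a type and different RNA per cell cannot be told apart.

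The promoter windows of the receptors differ from those of most genes in base composition, and 4 are shown because their genes carry the results below. Vmn2r1 had the largest fall, Tas1r3 is the called member with the brightest probe set, and Vmn1r208 had the largest called rise. Taar6 is 1 of the called Taar genes. Each window runs from 250 bases before to 50 bases after the annotated start, 5′ to 3′, from RefSeq (GRCm38.p6), with CG dinucleotides in capitals.
Vmn2r1, chr3:64081392-64081691, plus strand: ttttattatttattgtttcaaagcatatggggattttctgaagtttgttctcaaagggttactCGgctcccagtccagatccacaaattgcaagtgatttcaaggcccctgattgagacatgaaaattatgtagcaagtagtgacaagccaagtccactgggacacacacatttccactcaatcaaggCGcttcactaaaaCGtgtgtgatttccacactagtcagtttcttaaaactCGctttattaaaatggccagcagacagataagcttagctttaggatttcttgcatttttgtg
Tas1r3, chr4:155863304-155863603, minus strand: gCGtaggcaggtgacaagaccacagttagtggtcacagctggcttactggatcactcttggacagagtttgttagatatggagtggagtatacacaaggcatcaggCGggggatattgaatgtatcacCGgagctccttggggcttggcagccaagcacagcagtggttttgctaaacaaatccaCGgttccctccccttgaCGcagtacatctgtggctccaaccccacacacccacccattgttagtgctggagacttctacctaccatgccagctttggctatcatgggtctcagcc
Vmn1r208, chr13:22773276-22773575, minus strand: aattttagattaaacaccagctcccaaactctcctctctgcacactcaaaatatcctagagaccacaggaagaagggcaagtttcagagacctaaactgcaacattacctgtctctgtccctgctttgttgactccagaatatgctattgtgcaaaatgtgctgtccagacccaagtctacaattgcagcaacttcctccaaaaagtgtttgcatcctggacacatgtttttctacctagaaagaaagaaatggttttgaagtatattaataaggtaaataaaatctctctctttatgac
Taar6, chr10:23985597-23985896, minus strand: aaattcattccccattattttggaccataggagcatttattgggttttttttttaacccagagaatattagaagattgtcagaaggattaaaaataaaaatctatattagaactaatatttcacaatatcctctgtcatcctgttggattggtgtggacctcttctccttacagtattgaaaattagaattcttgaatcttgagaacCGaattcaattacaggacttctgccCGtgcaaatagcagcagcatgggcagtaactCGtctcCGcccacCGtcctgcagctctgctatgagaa
The Vmn1r208 window held 0 CG dinucleotides, that of Vmn2r1 held 4, and those of Taar6 and Tas1r3 held 5 each. The 10 Taar windows had a median of 2 CG and a maximum of 5, so that of Taar6 is not typical of them. Windows of this kind were listed for 189 of the 213 members, 1 per gene. Their median was 1 CG, against 7 over the 27025 genes of the promoter table, and 31.7% of them had none, against 5.78% of all. The median GC content was 36.3% for members, 35.0% for olfactory receptors and 52.7% for all. The motif TATAAA, on either strand, was in 34.9% of the members' windows and 14.2% of all. The 3 Tas1r genes stood apart from the other families, with 5 to 8 CG each and a median GC content of 56.3%. Windows of 24 members called higher with VPA had a median GC content of 36.7%, and those of 161 members that were not called had 36.0%. In 84.1% of the members' windows the annotated start is an ATG (6.75% of all), so for most of these genes the model begins at the coding sequence and the window may lie downstream of the true promoter.

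Nearly every member gave a signal in the range of background. Both group means lay under the gauge for 204 of 213 members, and the median level was 4.06 with a range of 2.90 to 6.60, against a median of 7.46 over all genes and 4.53 over olfactory receptors. The 9 members above the gauge in at least 1 group were Tas1r1, Tas1r3, Tas2r137, Tas2r138, Taar5, Vmn1r193, Vmn1r208, Vmn2r1 and Vmn2r9. Probe sets differ in how well they bind, so a higher signal of one gene than of another does not order their transcripts. Median levels were 3.99 for Vmn1r, 3.99 for Vmn2r, 4.20 for Tas2r, 4.52 for Taar and 6.23 for the 3 Tas1r genes.

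**Figure D1:**
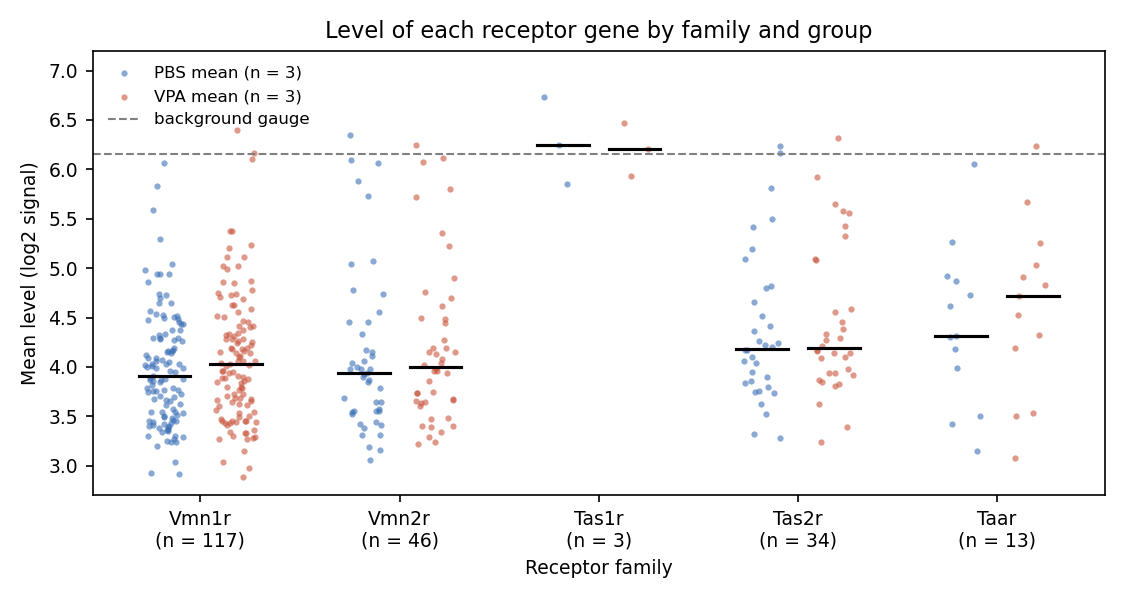
Mean log2 signal of each receptor gene with PBS (blue, n = 3 arrays) and with VPA (red, n = 3 arrays), by family, with the family median as a black line and the background gauge of 6.155 as a dashed line. Most points lie between 3 and 5 in both groups, and 9 of 213 genes have a group mean above the dashed line.

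With VPA, 27 of the 213 receptor genes were called higher and 4 lower at an adjusted p under 0.05 by limma. Over all genes 13.6% were called higher and 15.7% lower, 29.2% in all. In this fit the members' share of higher calls, 12.7%, was near that background, while their share of lower calls, 1.88%, was below it. The direction was uneven beyond the calls, with 162 members above and 51 below no change, against 10025 and 9913 of all genes. The median change was 0.09 over the members and 0.00 over all genes (log2, VPA minus PBS). These are small differences: the median half-width of a member's 95% interval was 0.17, the smallest called change was 0.18, and of the called members 0 were at least 1.5-fold higher and 1, Vmn2r1, was at least 1.5-fold lower. Groups did not overlap, with VPA higher, for 53 members (20.2% of all genes) and, with VPA lower, for 4 (23.8% of all genes). Of the 27 genes called higher, 25 had both means under the gauge, so for these the difference is one between signals not told apart from background. Without moderation of the variances 3 of the 31 calls remained, those of Vmn2r1, Tas2r140 and Vmn2r15. With array weights, which gave VPA replicate 1 the lowest weight, 79 members were called higher and 4 lower. Of all 19938 genes, 4342 were called higher and 4575 lower with array weights.

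Counts are given by family, some of which are small. Among Vmn1r genes 15 of 117 were called higher and 0 lower, with a median change of 0.09, and among Vmn2r genes 5 of 46 higher and 1 lower, with a median of 0.07. Of the 34 Tas2r genes 2 were called higher and 2 lower (median 0.07), and of the 13 Taar genes 5 were called higher and 0 lower (median 0.19). In the Tas1r family 0 of 3 were called higher and 1 lower. Unadjusted p-values under 0.05 by limma were given to 31 rises and 0 falls in Vmn1r, 14 and 1 in Vmn2r, 8 and 2 in Tas2r, 7 and 0 in Taar and 0 and 1 in Tas1r. Over all 19938 genes, limma gave such p-values to 3742 rises and 4170 falls. Olfactory receptors had a median change of 0.18, with 22.5% called higher and 0.195% lower. Whether the families differ from each other was not tested.

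**Figure D2:**
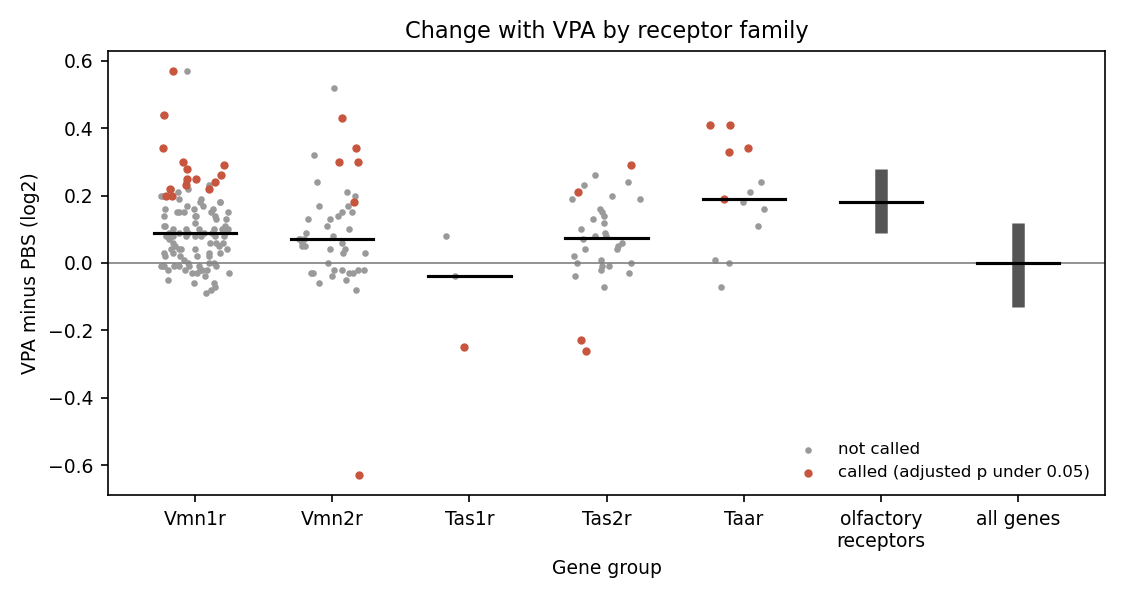
Change with VPA (log2, VPA minus PBS) of each receptor gene by family, with called genes in red, other genes in grey and the family median as a black line; for olfactory receptors and all genes the bar spans the 25th to 75th percentile. Most points of Vmn1r, Vmn2r, Tas2r and Taar lie above 0, and the lowest is Vmn2r1 at -0.63.

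Other dim genes gave a point of reference. Between levels 4 and 5, 17% of 88 members were called higher and 0 lower, with a median change of 0.10. In the same band 26.3% of 437 olfactory receptor genes were called higher and 0.458% lower (median 0.20), whereas of 1443 genes of no receptor family 4.50% were called higher and 2.36% lower (median 0.02). Under level 4 the shares called higher were 7.22% of 97 members, 12.3% of 269 olfactory receptors and 3.97% of 479 genes of no receptor family. From level 5 to the gauge they were 20% of 25 members, 27.5% of 269 olfactory receptors and 8.88% of 2872 other genes, and there 3 members (12%) were also called lower, against 5.78% of the other genes. In each of these bands the share of members called higher lay between those of the other genes and the olfactory receptors. The bands were chosen after the values were seen, and the difference between the gene groups was not tested.

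**Figure D3:**
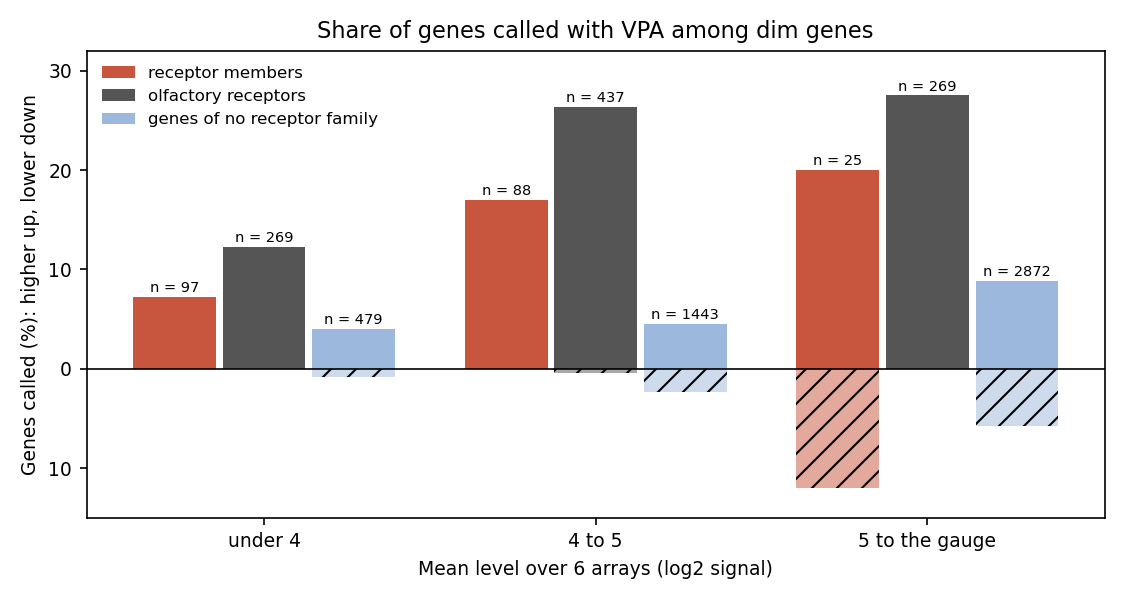
Share of genes called higher (solid bars, upward) and lower (hatched bars, downward) with VPA in 3 bands of mean log2 level below the background gauge, for receptor members, olfactory receptors and genes of no receptor family, with the number of genes above each bar. In the band from 4 to 5 the shares called higher are 17%, 26.3% and 4.50%.

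The rise was not shared evenly by the VPA arrays. Against the PBS mean, the median difference over the 213 members was 0.02 on VPA replicate 1, 0.15 on replicate 2 and 0.11 on replicate 3, while each PBS array differed from the mean of the other PBS arrays by a median between -0.01 and 0.01. Of the 213 members, 119 lay above the PBS mean on VPA replicate 1, 180 on replicate 2 and 166 on replicate 3. For Vmn1r these medians were 0.02, 0.16 and 0.12, for Taar 0.06, 0.25 and 0.28, and for olfactory receptors 0.05, 0.27 and 0.22. VPA replicate 1 was the lowest VPA array for 143 members, and for 20 of the 27 called higher. Without that array 72 members were called higher and 4 lower, with 19.8% and 21.2% of all genes called in those directions, and the members' median change was 0.12. All 31 calls remained. Leaving out any other array cut the number of calls. Members called higher and lower were 5 and 1 without PBS replicate 1, with 1820 and 2139 of all genes. Without PBS replicate 2 they were 7 and 2, with 1778 and 2058 of all genes. Without PBS replicate 3 they were 11 and 1, with 1972 and 2087 of all genes. Without VPA replicate 2 they were 5 and 4, with 2129 and 2339 of all genes. Without VPA replicate 3 they were 6 and 3, with 2236 and 2711 of all genes.

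**Figure D4:**
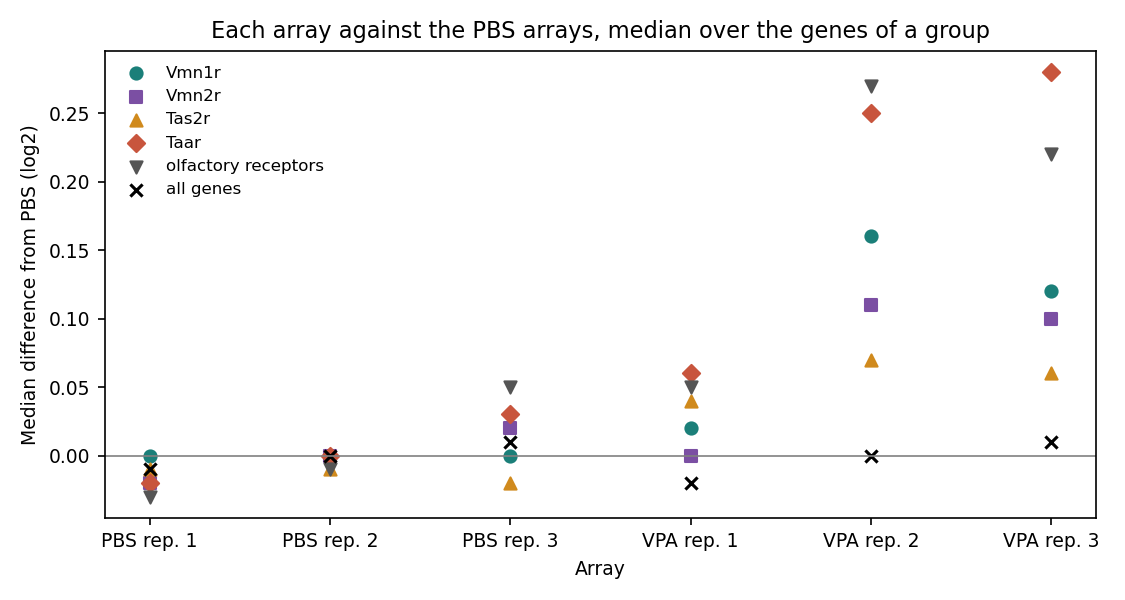
Median difference of each array from the PBS arrays (log2), over the genes of each family, the olfactory receptors and all genes; a PBS array is set against the mean of the other PBS arrays, a VPA array against the mean of the PBS arrays. For Vmn1r the 3 VPA arrays sit at 0.02, 0.16 and 0.12, and for all genes between -0.02 and 0.01.

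Vmn1r208 had the largest called rise among the Vmn1r genes, whose products are pheromone receptors of superficial vomeronasal neurons. Its signal was 5.57, 5.55 and 5.66 on the PBS arrays and 5.88, 6.29 and 6.33 on the VPA arrays, so that the groups did not overlap and the VPA mean of 6.17 just passed the gauge. The change was 0.57 (SE 0.11, adjusted p = 0.00443), and its dimmer probe set changed by 0.40. Vmn1r192, on the same chromosome, 13, was at 4.39, 4.39 and 4.50 with PBS and 4.70, 5.02 and 4.87 with VPA, a rise of 0.44 (SE 0.08, adjusted p = 0.00439). Leaving out any 1 array kept both calls, with adjusted p-values up to 0.024 for Vmn1r208 and 0.0251 for Vmn1r192. Vmn1r85, which encodes a receptor for sulfated steroids, rose by 0.34 (SE 0.11, adjusted p = 0.0492) with groups that overlapped, and Vmn1r46 by 0.30 (SE 0.09, adjusted p = 0.0355). Without PBS replicate 1, 2 or 3 or VPA replicate 2 or 3 those calls were lost, at adjusted p-values up to 0.163 and 0.117, and that of Vmn1r85 also with robust variances. The other 11 called Vmn1r genes changed by 0.20 to 0.29.

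Among Vmn1r genes that were not called, Vmn1r193 changed by as much as Vmn1r208 but varied more. It was at 5.62, 6.00 and 5.86 with PBS and at 5.90, 6.57 and 6.73 with VPA, where VPA replicate 1 lay within the PBS range. Its difference was 0.57 (SE 0.19, adjusted p = 0.0551). Vmn1r86, another of the genes with bright probe sets, had means of 6.06 ± 0.15 and 6.10 ± 0.26 (SD, n = 3), a difference of 0.04 with a 95% interval of -0.25 to 0.33. Over all 117 genes of the family, differences ran from -0.09 to 0.57, and 92 were above 0.

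Vmn2r1 fell more than any other receptor gene, and its product is one of the Vmn2r proteins that many deep vomeronasal neurons make beside a second Vmn2r receptor. On the PBS arrays it was at 6.36, 6.41 and 6.28, above the gauge, and on the VPA arrays at 5.72, 5.82 and 5.63, under it. The change was -0.63 (SE 0.07, adjusted p = 0.000185), with an adjusted p of at most 0.00208 when any 1 array was left out. As the VPA signal was not told apart from background, the true size of the fall is not defined. Its call held in each of the 15 alternative fits that kept the gene. Vmn2r1 is also 1 of 6 genes named for another probe set, which differed by 0.13 (SE 0.07) and was not called. The RefSeq model of Vmn2r1 overlaps that of Vmn2r2, so the signal may not be of Vmn2r1 alone.

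The other called Vmn2r genes were dimmer and higher with VPA. Vmn2r19 was at 3.75, 4.15 and 4.11 with PBS and 4.24, 4.49 and 4.59 with VPA, a rise of 0.43 (SE 0.12, adjusted p = 0.0264). Vmn2r111 rose by 0.34 (SE 0.09, adjusted p = 0.0185), Vmn2r71 by 0.30 (SE 0.08, adjusted p = 0.0166), Vmn2r68 by 0.30 (SE 0.09, adjusted p = 0.0403) and Vmn2r15, named after its values were seen, by 0.18. Both means of each of these 5 genes were under the gauge. Averaging the probe sets of Vmn2r111, of which the dimmer changed by 0.00, ended its call (0.17, adjusted p = 0.0975), and the replicate block ended that of Vmn2r15. Leaving out VPA replicate 2 ended all 5 calls, at adjusted p-values up to 0.0874 for Vmn2r19, 0.0563 for Vmn2r111, 0.0758 for Vmn2r71, 0.151 for Vmn2r68 and 0.115 for Vmn2r15 over the arrays left out. Without PBS replicate 1 the calls of Vmn2r19, Vmn2r68 and Vmn2r15 were lost, without PBS replicate 2 those of Vmn2r68, Vmn2r71 and Vmn2r15, without PBS replicate 3 that of Vmn2r15, and without VPA replicate 3 those of Vmn2r19, Vmn2r68, Vmn2r71 and Vmn2r15. Vmn2r9 was at 5.60, 5.79 and 5.80 with PBS and 5.67, 6.60 and 6.47 with VPA, and its difference of 0.52 (SE 0.20, adjusted p = 0.093) did not pass. Vmn2r26, a receptor for peptides that bind MHC molecules, differed by -0.02 (95% interval -0.22 to 0.18), and Vmn2r54 by 0.05 (-0.26 to 0.36).

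Tas1r3, the shared subunit of the sweet and umami receptors, fell slightly. Its signal was 6.75, 6.75 and 6.68 with PBS and 6.33, 6.52 and 6.57 with VPA, above the gauge on every array and without overlap. The change was -0.25 (SE 0.07, adjusted p = 0.0276). Without PBS replicate 1, 2 or 3 the call was lost, at adjusted p-values up to 0.0979. The RefSeq model of Tas1r3 overlaps that of Dvl1, a Wnt signalling gene at 9.21 ± 0.01 with PBS and 8.89 ± 0.21 with VPA that fell by 0.32 (SE 0.10, adjusted p = 0.0332, lost without each array other than VPA replicate 1, up to 0.105), and the part of Dvl1 in the Tas1r3 signal was not tested. Tas1r1, the umami partner, was at 6.19, 6.34 and 6.22 with PBS and 6.14, 6.38 and 6.11 with VPA, a difference of -0.04 with a 95% interval of -0.23 to 0.15. For Tas1r2, the sweet partner, the means were 5.85 ± 0.04 and 5.93 ± 0.06 (SD, n = 3) and the interval of the difference was -0.05 to 0.21.

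Both bitter receptor genes that fell, Tas2r108 and Tas2r137, are neighbours on chromosome 6 in the RefSeq gene order. Tas2r108, whose product responds to denatonium, was at 5.90, 5.74 and 5.80 with PBS and 5.48, 5.57 and 5.61 with VPA, a change of -0.26 (SE 0.07, adjusted p = 0.0171). Tas2r137 went from 6.15, 6.18 and 6.14 to 5.76, 6.02 and 5.99, a change of -0.23 (SE 0.08, adjusted p = 0.0464). For neither gene did the groups overlap. The call of Tas2r108 was lost without PBS replicate 1 or 3 (adjusted p up to 0.0777), and that of Tas2r137 without PBS replicate 1, 2 or 3 or VPA replicate 3 (up to 0.142), with a mean-dependent variance (0.0528) and with the replicate block (0.0513). Tas2r118 rose by 0.29 (SE 0.08, adjusted p = 0.0295) from 4.80 ± 0.03, and Tas2r140 by 0.21 (SE 0.06, adjusted p = 0.0251) from 3.62 ± 0.01, both far under the gauge. Their calls were lost without PBS replicate 1, 2 or 3 or VPA replicate 3, that of Tas2r118 also without VPA replicate 2, at adjusted p-values up to 0.0946 and 0.087. Tas2r138, the counterpart of the human receptor for phenylthiocarbamide, had a probe set above the gauge in both groups, at 6.24 ± 0.12 and 6.32 ± 0.08 (SD, n = 3), and differed by 0.08 (95% interval -0.09 to 0.25). The remaining Tas2r genes were not called.

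Of the Taar genes, 11 of 13 had a positive difference. Taar1, the receptor for trace amines such as tyramine, was at 4.28, 4.28 and 4.38 with PBS and 4.55, 4.92 and 4.70 with VPA, a rise of 0.41 (SE 0.09, adjusted p = 0.00863). Taar4, a phenylethylamine receptor, was at 5.14, 5.23 and 5.40 with PBS and 5.44, 5.79 and 5.78 with VPA, a rise of 0.41 (SE 0.11, adjusted p = 0.0183). In both genes VPA replicate 1 was the VPA array nearest to the PBS arrays, and the groups did not overlap. Taar7e rose by 0.34 (SE 0.10, adjusted p = 0.0335), Taar6 by 0.33 (SE 0.09, adjusted p = 0.0281) and Taar5, a receptor for trimethylamine, by 0.19 (SE 0.06, adjusted p = 0.0382). Taar5 alone among them had a VPA mean, 6.24, above the gauge. The call of Taar1 held without any 1 array (adjusted p up to 0.0411). Taar4 lost its call without PBS replicate 1 or 2 or VPA replicate 2 or 3 (up to 0.082), and Taar5, Taar6 and Taar7e theirs without each array other than VPA replicate 1 (up to 0.145, 0.101 and 0.127). The Taar5 call was also lost with median centring (0.0505), a mean-dependent variance (0.0513) and the replicate block (0.0699). Differences of the 8 uncalled genes ran from -0.07 for Taar8c to 0.24 for Taar9, whose adjusted p was 0.0736.

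**Figure D5:**
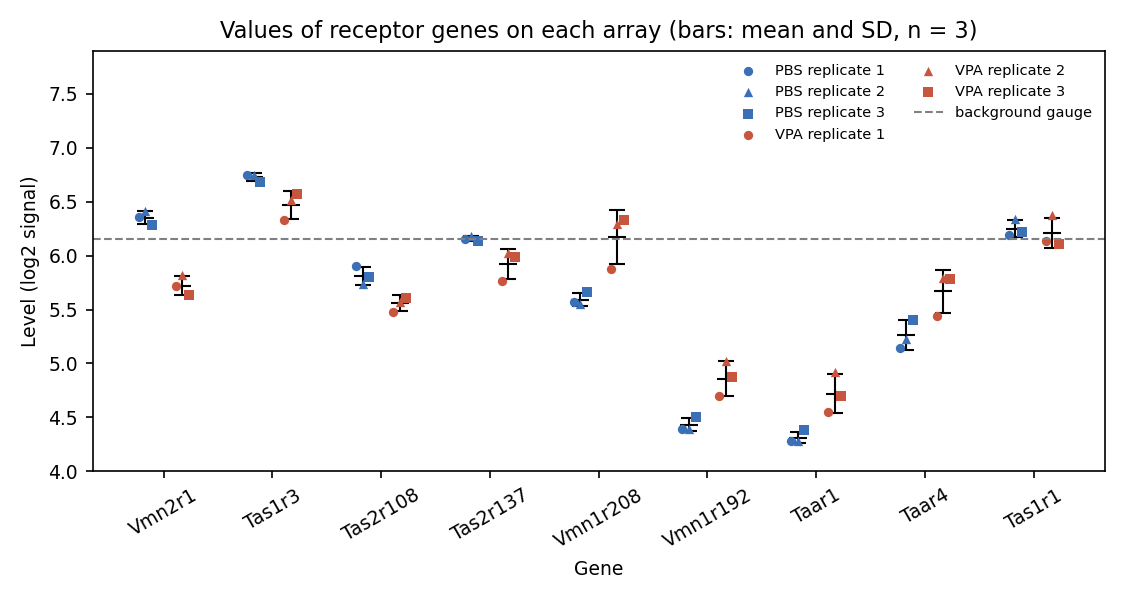
Log2 signal of 9 receptor genes on each of the 6 arrays (blue PBS, red VPA, marker shape for the replicate number), with the mean and SD of each group as black bars and the background gauge of 6.155 as a dashed line. For Vmn2r1, Tas1r3, Tas2r108 and Tas2r137 the VPA values lie below the PBS values, for Vmn1r208, Vmn1r192, Taar1 and Taar4 above them, and for Tas1r1 the groups overlap.

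The receptor genes lie in clusters on several chromosomes. The Vmn1r genes on chromosomes 6, 7, 13 and 17 had median changes of 0.09 (41 genes), 0.10 (34), 0.10 (27) and 0.08 (14), with 7, 4, 3 and 1 called higher. For Vmn2r genes the medians were 0.07 on chromosome 17 (15 genes), 0.08 on chromosome 7 (14) and 0.14 on chromosome 5 (7) and 0.00 on chromosome 6 (5), and Vmn2r1 was the only member on chromosome 3. The 13 Taar genes lie together on chromosome 10. In 4 cases a called member was followed in the RefSeq order by another called member, namely Taar4 and Taar5, Taar5 and Taar6, Vmn1r43 and Vmn1r44 (named for this after their values were seen), and Tas2r137 and Tas2r108. Each such pair moved in the same direction, but 27 of the 31 called members were higher, so this was likely beforehand. Adjacent members without calls were not counted, and whether called members lie together was not tested.

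Genes that carry the receptors' signal were described from lists of vomeronasal, taste and olfactory genes. Of 52 such genes measured, 7 were called higher and 8 lower (median change 0.03), which is near the shares over all genes, 13.6% higher and 15.7% lower. In the taste list 4 of 13 were called higher and 0 lower, beside the same 13.6% and 15.7% of all genes; whether the list differs from other genes was not tested. Trpm5, the cation channel of sweet, umami and bitter cells, was at 5.96, 5.90 and 5.93 with PBS and 6.66, 6.47 and 6.59 with VPA, a rise of 0.65 (SE 0.06, adjusted p = 0.000118) from under the gauge to above it. Itpr3, the calcium release channel of the same cells, rose by 0.60 (SE 0.08), Car4, an enzyme of sour cells, by 0.44 (SE 0.08) and Otop1, their proton channel, by 0.17 (SE 0.06). The Otop1 call was lost without each array other than VPA replicate 1 (adjusted p up to 0.147) and after quantile normalization (0.0513), with a mean-dependent variance (0.0589) and with the replicate block (0.0794). Gnat3, the taste G protein alpha subunit gene gustducin, was at 3.80 ± 0.05 and 3.88 ± 0.09 (SD, n = 3), far under the gauge and not called, and 5 of 8 taste cell markers had both means under it.

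In the vomeronasal list 2 of 25 genes were called higher and 4 lower, beside the 13.6% and 15.7% of all genes, and Trpc2, the channel of vomeronasal neurons, was not analysed here. Ano1, a chloride channel gene, fell by 1.07 (SE 0.09, adjusted p = 4.19e-05) from 7.33 ± 0.18 to 6.26 ± 0.05, and Gng8, a G protein gamma subunit gene, by 0.35 (SE 0.06, adjusted p = 0.00253) from 6.42 ± 0.06 to 6.07 ± 0.06. Meis2, a homeobox gene with wide expression in the nervous system, rose by 0.44 (SE 0.06), and Itpr3 is on this list too. In the trace amine and main olfactory list 2 of 20 were called higher and 4 lower, also near those shares. Ddc, whose enzyme makes trace amines and monoamines, rose by 0.91 (SE 0.10, adjusted p = 0.000196) from 5.35 ± 0.20, under the gauge, to 6.25 ± 0.08. Maob, whose enzyme breaks down phenylethylamine, fell by 0.71 (SE 0.08, adjusted p = 0.000176), with both means under the gauge. Lhx2, a transcription factor gene of olfactory neurons and of the forebrain, fell by 0.65 (SE 0.06), and Ebf1, a factor of olfactory and many other neurons, rose by 0.57 (SE 0.06). Of the 4 vomeronasal neuron markers measured, 0 were called higher and 2 lower, beside 13.6% and 15.7% of all genes. All 4 had a mean over the 6 arrays above the gauge. Of the 8 olfactory neuron markers 0 were called by limma in either direction, at an adjusted or an unadjusted p under 0.05.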

How the data were processed

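The authors deposited 1 log2 signal per probe set and array; base 2 was inferred from the values, 2.50 to 13.89. The sources used here do not state how background was corrected, probes summarized or arrays normalized. The submitters' processing notes name Partek 6.5 and build mm9, with no role. That the arrays are normalized to each other was inferred from their close medians, 6.99 to 7.03. If so, each change is relative to the other genes.

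Of 35556 probe sets, 21789 had 1 gene symbol in GEO's platform annotation, 1621 several and 12146 none. Symbols were updated by Entrez ID through a RefSeq table (GRCm38.p6), which matched 21698 of those with 1 symbol and all 213 members. Each gene was given its brightest probe set over the 6 arrays, which left 19938 genes; more than 1 probe set was listed for 8 members. The RefSeq table lists 418 receptor genes of these families, so many were outside the comparison, and 83 are named here by probe sets with several symbols alone. Near-identical relatives can also bind the same probes, so values of single members are uncertain in that respect.

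VPA was compared with PBS by lmFit and eBayes of limma 3.58.1 (R 4.3.3) without covariates or a filter on dim genes. A gene was called at an adjusted p (Benjamini-Hochberg, over all 19938 genes) under 0.05. ± is the SD over 3 arrays, and SE is the moderated standard error. Their number limits the precision. Exact permutation of 3 against 3 arrays was left out, as its smallest two-sided p is 0.1. The script was tested on simulated data.

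Per family, up to 4 called genes with the largest change in each direction were named, or, in a family without calls, the 2 with the lowest p, the 2 with the brightest probe sets, every Tas1r gene, Taar1, and up to 10 genes above the gauge in either group. Up to 4 called genes per signalling list were named, besides Trpc2, Trpm5 and Gnat3. The members and lists were chosen with earlier results of these data known. Trpc2, Fpr3 and Calhm3 were among the listed genes not analysed here.

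Replicate numbers were not taken to pair the arrays in the main fit. The alternatives were quantile normalization, median centring, leaving out dim genes (30th or 50th percentile), array weights, other variance models, a block for the replicate number, thresholds of 0.01 and 0.10, averaged probe sets, symbols as annotated, and leaving out each array in turn.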

Additional observations from a re-analysis of the deposited data

Results flagged for a closer look

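Probe sets that the annotation pairs with several genes lay outside the comparison, and 68 of them name at least 1 vomeronasal or trace amine receptor gene among theirs. They were looked at after the other values had been seen. In a limma fit over all 23410 probe sets with a symbol, 45 of the 68 were called higher with VPA and 1 lower at an adjusted p under 0.05, where 13.6% of all probe sets were called higher and 14.7% lower. The median change was 0.46 (log2, VPA minus PBS), against 0.09 over the 221 receptor probe sets with 1 symbol, and 62 of 68 changes were above 0. Of the 28 sets that name Vmn1r genes 20 were called higher and 0 lower (median 0.46), and of the 38 that name Vmn2r genes 24 were higher and 1 lower (median 0.60).

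The size of the change went with the number of genes named. The 20 sets with 2 symbols had a median change of 0.18 and 6 higher calls, the 12 with 3 to 5 symbols 0.52 and 8, and the 36 with 6 or more symbols 0.76 and 31. The largest change was that of a set of 12 gene names with Vmn2r genes among them. On the PBS arrays it was at 5.67, 6.12 and 6.36, and on the VPA arrays at 6.91, 8.08 and 7.77, without overlap, a change of 1.53 (SE 0.29, adjusted p = 0.00519). Over the 36 sets the array medians were 4.91, 5.24 and 5.27 with PBS and 5.65, 6.02 and 6.18 with VPA. At least 2-fold rises were called for 10 of the 68 sets, against 300 of all 23410 probe sets with a symbol. Of the 68 sets 16 had a VPA mean above the background gauge, against 7 with PBS. Over all 23410 these counts were 16481 and 16229. Without VPA replicate 1, 54 of the 68 sets were called higher and 1 lower, against 4829 and 4770 of all 23410. Several of these sets share gene names with each other and are not independent, and which of the named genes gives the signal cannot be told from them. Some sets even have the same rounded values on all 6 arrays. An example is the Vmn1r sets at 4.88, 4.93 and 5.10 with PBS and 5.18, 5.53 and 5.58 with VPA. The counts and medians of these sets thus hold some signals more than once.

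Other probe sets with many names also had more higher than lower calls. Of 277 sets with 6 or more symbols and no chemoreceptor gene, 38.3% were called higher and 5.78% lower (median 0.21). At least 2-fold rises were called for 18 of these 277, and without VPA replicate 1, 157 were called higher and 26 lower. Of 100 sets that name several genes with olfactory receptors among them 50 were called higher and 0 lower (median 0.39). Over all 1453 sets with several symbols and no chemoreceptor gene, 17.7% were called higher and 7.02% lower (median 0.03). The difference between these kinds of probe set was not tested.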

How the results depend on the processing

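The limits are few arrays, signals near background and a small size of change. Counts of calls moved widely, while the median change over the members stayed between 0.05 and 0.12 when any 1 array was left out. Over those 6 fits, members called higher ranged from 5 to 72 and lower from 1 to 4; Vmn1r higher 2 to 41, Vmn2r higher 0 to 14, Tas1r lower 0 to 1, Tas2r higher 0 to 8 and lower 0 to 2, Taar higher 1 to 9, olfactory receptors higher 63 to 582 and lower 0 to 3, signalling genes higher 6 to 14 and lower 5 to 8, and all genes higher 1778 to 3949 and lower 2058 to 4224. Median changes ranged from 0.05 to 0.13 for Vmn1r, 0.05 to 0.10 for Vmn2r, -0.12 to 0.01 for Tas1r, 0.04 to 0.08 for Tas2r and 0.14 to 0.23 for Taar. Each of the highest counts of higher calls was the one without VPA replicate 1.

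Without moderation of the variances 5 members were called higher and 1 lower (Vmn1r 2 higher, Vmn2r 1 higher, Tas1r 0 lower, Tas2r 1 higher and 0 lower, Taar 1 higher, olfactory receptors 27 higher and 1 lower, all genes 1631 higher and 2100 lower). With array weights 79 members were called higher (Vmn1r 44, Vmn2r 15, Tas2r 12, Taar 8), with 656 olfactory receptors higher and 4 lower and 14 signalling genes higher. Of all genes 4342 were higher and 4575 lower in that fit. At an adjusted p under 0.01, 3 members were higher and 1 lower (Vmn1r 2 higher, Vmn2r 0 higher, Tas1r 0 lower, Tas2r 0 higher and 0 lower, Taar 1 higher), with 38 and 0 olfactory receptors, 4 signalling genes lower, and 1579 and 1791 of all genes. At 0.10, 47 members were higher (Vmn1r 25, Vmn2r 10, Tas2r 6), with 380 and 6 olfactory receptors, and 3430 and 3861 of all genes. The filter at the 30th percentile kept 3 members, of which 0 were higher and 1 lower (Tas2r 0 and 0). Their median change was -0.04 and their median level 6.28. It left 12 and 0 olfactory receptors and 2285 and 3185 of all genes called, and moved the median over all genes to -0.03. At the 50th percentile no member was left. There 1 and 0 olfactory receptors, 2 and 4 signalling genes and 1520 and 2650 of all genes were called higher and lower. The median over all genes was -0.05. With a mean-dependent variance 1 Tas2r gene was lower, with 2738 of all genes higher and 3268 lower.

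With the replicate number as a block 26 members were called higher and 3 lower, with 1 Tas2r gene and 1 olfactory receptor lower, and 23 of the 31 calls remained. Of all genes 2592 were higher and 2818 lower in that fit. Deviations of same-numbered arrays from their group means correlated at -0.0199, -0.00849 and 0.0196, and those of other pairs at -0.0286 to 0.026. Such values cannot settle whether cultures were paired, as deviations from means of 3 arrays hold much noise, and the sample titles give only a number. After quantile normalization 30 of the 31 calls remained, and after median centring 27. Signs turned for differences near 0: Tas1r1 was at 0.03 with array weights and 0.01 without VPA replicate 3; Vmn2r26 at 0.06 with array weights and 0.04 without PBS replicate 3 or VPA replicate 1; Vmn1r86 at -0.03 without PBS replicate 3 and -0.08 without VPA replicate 2 (up to 0.19 without VPA replicate 1); Vmn2r54 at -0.09 without PBS replicate 1 and -0.07 without VPA replicate 2; and Pou5f1 at 0.04, 0.03 and 0.01 without PBS replicate 1, PBS replicate 3 and VPA replicate 2 (down to -0.13 without PBS replicate 2). The cause was not tested.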

Other observations

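For the 8 members with more than 1 probe set, the brighter and the dimmer set did not always move alike. Vmn1r208 changed by 0.57 on the brighter and 0.40 on the dimmer set, Vmn2r83 by 0.21 and 0.10, and Vmn2r17 by 0.08 and 0.17. Tas2r117 changed by 0.24 and -0.08, Vmn2r65 by 0.20 and -0.06, Vmn2r23 by -0.03 and 0.09, and the called gene Vmn2r111 by 0.34 and 0.00. The sets of Vmn2r113 gave -0.03 each. Among called members, Vmn1r200, whose own probe set changed by 0.20, is 1 of 18 genes named for another set that changed by 0.98, and Vmn2r111 is 1 of 4 genes named for a set that changed by 0.71. Vmn2r1 is the called member whose shared set differed in sign from its own, at 0.13 against -0.63. That shared set was not called (SE 0.07, adjusted p = 0.2 by limma).

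Markers of testis germ cells, where some chemoreceptor genes are also transcribed, were not called by limma: of 6 measured genes 0 were higher and 0 lower at an adjusted p under 0.05, and their mean level over the list was 5.56 to 5.59 on PBS arrays and 5.48 to 5.60 on VPA arrays. At an unadjusted p under 0.05, Ddx4 was lower, by -0.17 (adjusted p = 0.0539).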
